A study of Caenorhabditis elegans with 2 samples.

Results

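The histone genes of Caenorhabditis elegans were examined for DVE-1, a SATB-family homeodomain protein best known from the mitochondrial unfolded protein response. The members were the protein-coding genes of the WBcel235 assembly whose name starts with his-, hil- or htz-, 81 of 19973 in all. They comprised 66 core histone genes (17 for H2A, 17 for H2B, 16 for H3 and 16 for H4), 9 linker histone genes (his-24 and hil-1 to hil-8) and 6 variant genes (htz-1 and the H3.3-type genes his-69, his-70, his-71, his-72 and his-74). A core gene was given its type from the closest of the proteins of his-3, his-4, his-2 and his-1. This put 2 short proteins among the core genes, his-73 with 46 residues under H3 and his-39 with 67 residues under H2B.

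Binding was measured by chromatin immunoprecipitation and sequencing (ChIP-seq) in whole hermaphrodites at L4, the last larval stage. The strain was OP398, of genotype unc-119(tm4063) III; wgIs398, in which wgIs398 is a transgene for DVE-1 with GFP and FLAG at its C-terminus. An antibody to GFP recovered the fusion protein from sonicated chromatin. The labels do not name the promoter of the transgene. There was 1 group of 2 biological replicates from separate biosamples, and both were compared with the same control, which was not analysed here. With no second condition, every comparison below is between genes, peaks or replicates of this group. No read counts come with the lists, and the depth of either library is therefore unknown. In whole animals, strong binding in few cells and weak binding in many cannot be told apart.

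Core histones form the protein spool on which DNA is wound into nucleosomes: a tetramer of H3 and H4 flanked by dimers of H2A and H2B. Linker histones bind the DNA that enters and leaves the nucleosome. Most core histone genes of animals are expressed during DNA replication, lack introns, and end their mRNA in a stem-loop instead of a poly(A) tail. Variants such as H2A.Z and H3.3 are made throughout the cell cycle from genes with introns and replace core histones at active or regulated chromatin. In worms the core genes lie in clusters, many as pairs transcribed away from a shared gap, and many copies encode the same protein.

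Of the 81 histone genes, 18 (22.2%) were marked by DVE-1, and so were 21.7% of all protein-coding genes, so the share of histone genes was near the background. Optimal peaks are those 7262 regions of the pooled replicates that passed the threshold on reproducibility, and a gene was called marked when such a summit lay up to 1000 bp before or 200 bp past any of its annotated 5' ends. Not every optimal peak recurs in both replicates. A summit within 100 bp was found in both replicate lists, at any rank, for 6828 of the 7262 (94.0%). The marked genes were 12 of the 66 core genes (18.2%), 4 of the 9 linker genes and 2 of the 6 variant genes. Among the core genes 3 of 17 were marked for H2A (his-3, his-61, his-68), 2 of 17 for H2B (his-4, his-62), 2 of 16 for H3 (his-42, his-59) and 5 of 16 for H4 (his-26, his-37, his-46, his-60, his-67). Where histone genes were marked, the peaks were often strong. The strongest 5% of the optimal peaks, those of rank 363 or better, reached the windows of 10 histone genes, 12.3% of the members against 1.48% of all protein-coding genes. These 10 genes were served by 6 peaks, since 4 of the peaks lay between a pair of histone genes and were counted for both.

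In all, 16 distinct optimal peaks lay in histone windows. Their median signal in the pooled list was 72.3, against 64.7 for all optimal peaks and 66.9 for all peaks in promoter windows. The optimal list spanned signals from 34.7 to 918. The median summit of a marked histone gene lay 167.5 bp upstream of the 5' end, against 227 bp for the other marked genes. These distances are not measured alike. The annotated 5' end was the start codon in 64 of the 81 histone genes (79.0%) but in 23.4% of all protein-coding genes.

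The strongest histone peak was at his-37, one of the 16 H4 genes and the only one of them with an intron. Its pooled signal of 559 ranked 7th among all regions, and it ranked 8th in replicate 1 (signal 233) and 6th in replicate 2 (signal 328). Each replicate list has a signal scale of its own, so a value was also divided by that replicate's median over the optimal peaks (29.4 in replicate 1 and 37.8 in replicate 2). On this scale the his-37 peak stood at 7.91 in replicate 1 and 8.68 in replicate 2, a mean of 8.29 ± 0.54 (SD, n = 2). Every other histone peak was lower than his-37 in both replicates. The summit was 95 bp before the gene, in sequence that the annotation gives to no gene. A further, weak optimal peak 729 bp upstream (rank 7253 of 7262, relative signal 0.592 ± 0.225, SD, n = 2) fell in an exon of C50F4.6, the neighbouring gene.

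The part of the strong his-37 peak before the annotated 5' end is shown because it holds a 12-base sequence that recurs in the other strong core peaks described below. Capitals mark that sequence, GTGTCCCCGCAG or, where it lies on the other strand, its reverse complement CTGCGGGGACAC. All genomic sequences here are RefSeq's WBcel235 (ce11).
his-37, chrV:9546864-9547104, + strand: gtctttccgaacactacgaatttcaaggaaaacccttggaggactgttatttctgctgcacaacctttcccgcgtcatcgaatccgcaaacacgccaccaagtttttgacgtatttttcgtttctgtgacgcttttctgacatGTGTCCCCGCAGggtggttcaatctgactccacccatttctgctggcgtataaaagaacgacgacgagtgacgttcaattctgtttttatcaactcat

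The next core peaks lay in the gaps between divergent pairs, and each served both genes of its pair. In the gap of his-4 (H2B) and his-3 (H2A) the peak had a pooled signal of 241 (rank 132), with relative signals of 3.41 in replicate 1 and 3.82 in replicate 2 (3.61 ± 0.289, SD, n = 2). Its summit lay 125 bp before his-4 and 168 bp before his-3. In the gap of his-60 (H4) and his-59 (H3) the pooled signal was 234 (rank 144), with relative signals of 3.07 and 3.74 (3.41 ± 0.473, SD, n = 2). In the neighbouring gap of his-61 (H2A) and his-62 (H2B) it was 228 (rank 153), with 2.96 and 3.72 (3.34 ± 0.54, SD, n = 2). All 3 were higher in replicate 2 than in replicate 1, and the peak of his-4 and his-3 was the highest of the 3 in both replicates.

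The peaks in these gaps are printed to show the shared sequence in its setting. In all 3 it stands to the left of the centre of the gap, towards his-4, his-60 or his-61, and reads on the other strand.
his-3 and his-4, chrV:16040533-16040783, + strand: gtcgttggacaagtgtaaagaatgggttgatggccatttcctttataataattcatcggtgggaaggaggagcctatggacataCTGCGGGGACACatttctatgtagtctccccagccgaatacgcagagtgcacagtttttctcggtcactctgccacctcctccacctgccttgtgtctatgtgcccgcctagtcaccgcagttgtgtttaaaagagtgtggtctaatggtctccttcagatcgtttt
his-59 and his-60, chrIV:7488004-7488230, + strand: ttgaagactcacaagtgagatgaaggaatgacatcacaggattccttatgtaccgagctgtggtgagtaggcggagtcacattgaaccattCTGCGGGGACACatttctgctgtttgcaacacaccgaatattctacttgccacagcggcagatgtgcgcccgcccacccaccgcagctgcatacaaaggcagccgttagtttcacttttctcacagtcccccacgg
his-61 and his-62, chrIV:7486245-7486536, + strand: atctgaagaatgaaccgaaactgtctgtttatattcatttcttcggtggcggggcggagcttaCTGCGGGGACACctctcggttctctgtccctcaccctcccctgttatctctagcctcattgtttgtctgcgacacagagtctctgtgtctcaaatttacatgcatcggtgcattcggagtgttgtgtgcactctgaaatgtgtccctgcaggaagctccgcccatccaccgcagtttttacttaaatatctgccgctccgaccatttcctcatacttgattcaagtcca

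The fourth such gap, of his-67 (H4) and his-68 (H2A) on chromosome I, had a pooled signal of 203 (rank 236), with relative signals of 3.31 in replicate 1 and 2.73 in replicate 2 (3.02 ± 0.409, SD, n = 2). Unlike the other gaps it was higher in replicate 1, where it lay between his-3 with his-4 and his-59 with his-60. In replicate 2 it was the lowest of the 4. Its summit also lay 803 bp upstream of alg-5, an Argonaute gene.

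**Figure D1:**
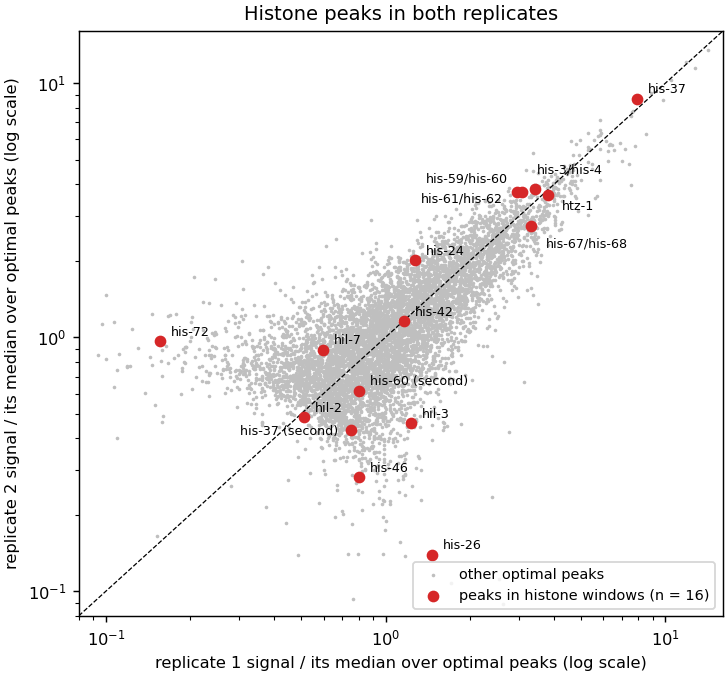
Signal of each optimal peak in replicate 1 (x axis) and replicate 2 (y axis), each divided by the median of that replicate over the optimal peaks, on log axes. Red points are the 16 peaks in histone windows, grey points the other optimal peaks, and the dashed line marks equal values. The his-37 peak stands above all other histone peaks, the peaks of htz-1 and of 4 divergent pairs form a group between 2.73 and 3.82, and his-26 and his-72 lie far from the line.

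The other marked core genes had weaker peaks, none of them in the gap of a divergent histone pair. The his-42 (H3) peak had a pooled signal of 78.5 (rank 2669) and nearly equal relative signals of 1.16 and 1.15. It lay 647 bp upstream, at the outer edge of its cluster, over the annotated small nuclear RNA gene C47F8.9, and only 38.1% of its positions started a 50-mer found once in the genome. The his-26 (H4) peak, with a pooled signal of 51.0 (rank 4898), lay 971 bp upstream, past the neighbouring H3 gene his-25, between the 3' ends of his-9 and his-25. Its relative signal was 1.47 in replicate 1 and 0.139 in replicate 2, a log2 ratio of 3.40 where the ratio over 6828 optimal peaks found in both replicates had an SD of 0.66. The his-46 (H4) peak ranked 7006, with relative signals of 0.806 and 0.282. It lay 902 bp upstream of his-46 but only 29 bp upstream of B0035.21, a protein-coding gene next to the cluster. A second peak in the his-60 window lay 966 bp upstream, beyond his-59, at rank 5286 and a relative signal of 0.711 ± 0.134 (SD, n = 2). These 4 summits thus lay 647 to 971 bp from the 5' end of the histone gene they were counted for.

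Among the linker genes, his-24, which encodes a histone H1, had the strongest peak. The pooled signal was 111 (rank 1414), and the relative signals were 1.28 in replicate 1 and 2.01 in replicate 2 (1.64 ± 0.519, SD, n = 2). The summit was 36 bp before the gene, over the annotated non-coding RNA gene M163.19. The other marked linker genes were hil-3 (pooled signal 54.0, rank 4571), hil-7 (52.2, rank 4762) and hil-2 (36.4, rank 6974), with summits 58, 167 and 51 bp upstream. Their relative signals were 0.842 ± 0.545, 0.745 ± 0.208 and 0.496 ± 0.0178 (SD, n = 2), so all 3 lay below the median optimal peak. The hil-3 peak ranked 2635 in replicate 1 and 8766 in replicate 2. The annotated hil-7 protein is short, with 66 residues against 151 to 253 for the other linker genes. Among the unmarked linker genes, hil-1 had a pooled region at rank 13748, and hil-4, hil-5, hil-6 and hil-8 had no summit in their window in any of the 3 relaxed lists.

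The his-24 peak before the 5' end is printed because it is the only linker peak with the 12-base sequence, again in capitals.
his-24, chrX:14489965-14490093, + strand: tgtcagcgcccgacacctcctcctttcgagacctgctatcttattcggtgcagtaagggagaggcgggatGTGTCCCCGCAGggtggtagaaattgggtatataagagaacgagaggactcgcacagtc

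Among the variants, htz-1 was the strongest. It encodes H2A.Z, and its protein was identical to that of his-3 at 53.5% of positions. The peak had a pooled signal of 249 (rank 123), the second highest of the histone peaks, and ranked 130 in replicate 1 and 126 in replicate 2. Its relative signals were 3.80 and 3.62 (3.71 ± 0.125, SD, n = 2). In replicate 1 it lay above every marked divergent core gap, the highest being that of his-4 and his-3 at 3.41. In replicate 2 it lay below the gaps of his-4 with his-3 (3.82), his-60 with his-59 (3.74) and his-61 with his-62 (3.72). It was above that of his-67 with his-68 (2.73) there. The summit lay 304 bp before htz-1 and 172 bp before wapl-1, a divergent gene for a cohesin release factor, and was closer to the latter.

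The second marked variant was his-72, an H3.3 gene whose protein matches that of his-2 at 93.4% of positions. Its peak, 169 bp upstream, had a pooled signal of 66.1 (rank 3515). Within 100 bp of this summit the signal in replicate 2 was 36.5 (rank 3825), but the signal in replicate 1 was 4.58 (rank 22725), giving a relative signal of 0.561 ± 0.573 (SD, n = 2). Replicate 1 had its own stronger region 939 bp upstream of 1 of the 2 annotated 5' ends, at rank 3284. The strongest summits of the replicates at his-72 thus lay apart. The other H3.3 gene, his-71, identical to his-2 at 94.1% of positions, had a pooled region 613 bp upstream at rank 8497, below the optimal list. The genes his-69, his-70 and his-74, at 77.2%, 76.5% and 88.2% identity, had no summit in their window in any relaxed list.

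The htz-1 peak is printed as the strong histone peak without the 12-base sequence, of which at most 7 letters matched in place.
htz-1, chrIV:4445778-4446018, + strand: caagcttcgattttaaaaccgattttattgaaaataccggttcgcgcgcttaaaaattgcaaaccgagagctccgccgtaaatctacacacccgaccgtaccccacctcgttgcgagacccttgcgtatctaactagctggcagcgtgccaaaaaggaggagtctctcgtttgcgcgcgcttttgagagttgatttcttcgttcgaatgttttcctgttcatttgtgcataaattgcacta

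Marked genes were compared with how repetitive their windows were, because many histone genes are copies. Of the 81 members, 62 shared an identical protein with another member, 37 an identical coding sequence and 33 an identical 250 bp upstream of the 5' end. All 16 H4 genes encoded the same protein, as did 15 of the 16 H3 genes and 16 of the 17 H2A genes, while the 17 H2B genes encoded 5 proteins, the most common of them from 6 genes. On chromosome V, the 6661 bp from his-50 to his-53 and the stretch from his-28 to his-19 were identical at 100% of positions. A sequencing read from such a copy cannot be assigned to 1 place. Neither the read length nor whether the lists rest on uniquely placed reads only is given in the sources used here. The share of window positions at which a 50-mer starts that occurs once in the nuclear genome was therefore taken as a measure of uniqueness.

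By that measure the median histone window was unique at 55.1% of positions and the median window of the other genes at 100%. Core windows had a median of 21.3%, linker windows ranged from 95.8% to 100% and variant windows from 90.02% to 100%. No gene whose window, taken at its outermost 5' end, was unique at under 1% of positions was marked. This held for histone genes (0 of 22) and for other genes (0 of 167). Below 50%, 2 of 40 histone genes (his-26 and his-46, both core) and 12 of 457 other genes (2.63%) were marked. From 50% to 90%, 3 of 13 histone genes and 179 of 1568 other genes (11.4%) were marked. At 90% or more, 13 of 28 histone genes (46.4%), among them 7 of 13 core genes (53.8%), were marked, against 4118 of 17867 other genes (23.05%). Uniqueness and marking thus moved together in histone genes and in the other genes, and the part of read placement in the lower share of core genes was not tested. The lists themselves held few repetitive regions, since 5 of the 30000 pooled regions and 0 of the 7262 optimal ones were unique at under 1% of positions. With 36-mers in place of 50-mers, 9 of 18 histone genes and 23.3% of the other genes at 90% or more were marked.

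**Figure D2:**
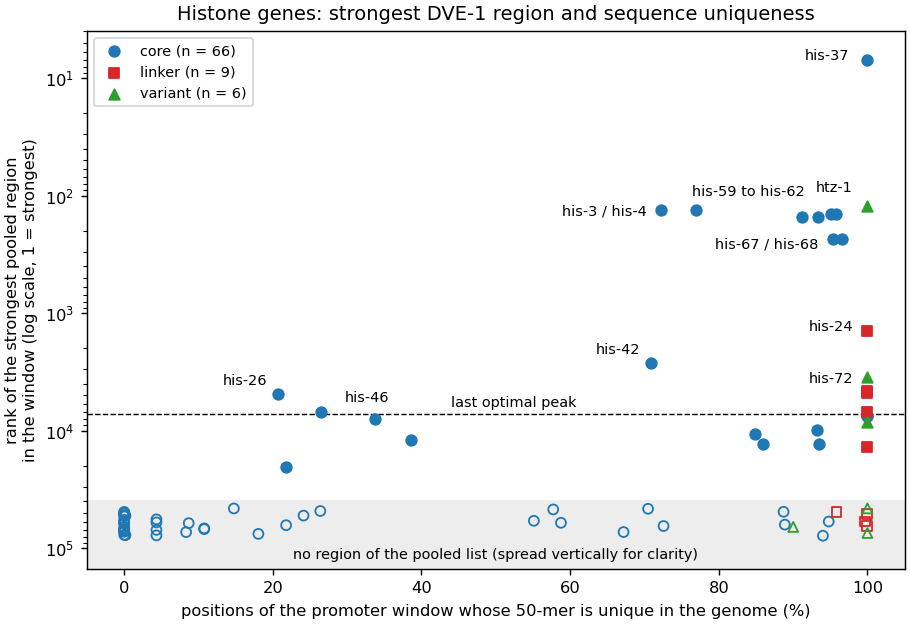
Each of the 81 histone genes by the share of its window positions with a unique 50-mer (x axis, in %) and the rank of the strongest pooled region in the window (y axis, log scale, strongest at the top), for core (circles), linker (squares) and variant genes (triangles). Filled symbols have a region in the pooled list, open symbols in the grey band have none and are spread vertically for clarity, and the dashed line marks rank 7262, the last optimal peak. The strong peaks stand at the right, and genes at 0% carry no region.

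**Figure D3:**
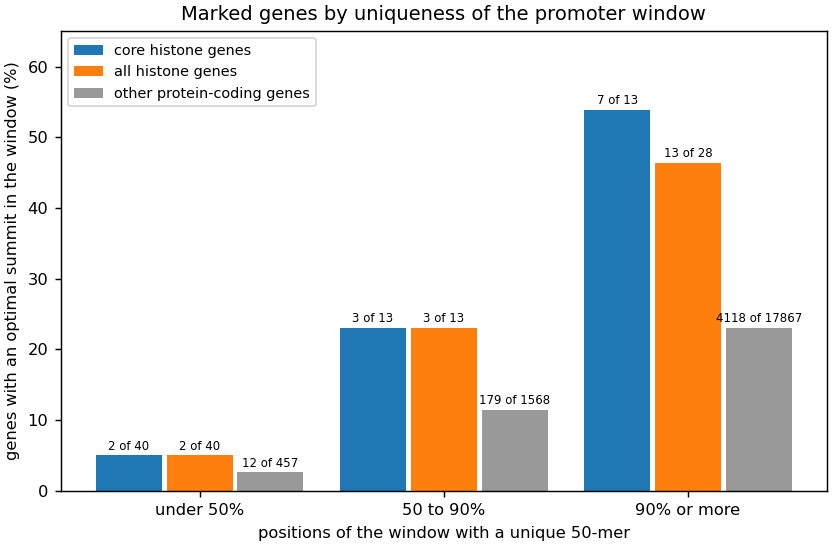
Share of genes with an optimal summit in the window (y axis, in %) by the share of window positions with a unique 50-mer (x axis), for core histone genes (blue), all histone genes (orange) and other protein-coding genes (grey), with the counts above the bars. In all 3 gene groups the share rises from the left to the right bin, to 7 of 13, 13 of 28 and 4118 of 17867 genes.

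By position, 67 of the 81 members lay in 14 clusters (neighbours at most 5000 bp apart). Of these 67, 12 (17.9%) were marked, against 6 of the 14 genes outside clusters and 21.7% of all protein-coding genes. The 14 outside genes were the linkers, 4 variants and his-73, so cluster and class cannot be told apart. Marked genes occurred in 6 clusters. The small cluster of his-61, his-62, his-60 and his-59 on chromosome IV had all 4 genes marked, and his-67 and his-68 were both marked. In the cluster from his-4 to his-1 on chromosome V the H2A and H2B pair was marked and the H3 and H4 pair was not. The cluster of his-35, his-41 and his-37 had 1 of 3 marked, the cluster from his-47 to his-45 had 1 of 4, and the cluster of 13 genes from his-16 to his-42 on chromosome II had 2. The other 8 clusters had no marked gene. Of the 6 clusters with a marked gene, the sequence was unique at 99.97% of positions from his-35 to his-37, 94.8% from his-67 to his-68, 93.1% from his-61 to his-59 and 79.6% from his-4 to his-1, but at 7.58% from his-16 to his-42 and 5.18% from his-47 to his-45. Of the 8 without, it was unique at 99.4% for his-69 and his-70, 83.3% for his-38 and his-40, 74.8% from his-66 to his-64, 69.6% from his-8 to his-39 and 52.7% from his-29 to his-34. In the other 3 it was unique at 24.9% from his-55 to his-57, 1.62% from his-28 to his-18 and 0% from his-50 to his-53. Unique and repeated clusters thus occurred in both groups.

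There were 31 divergent pairs of histone genes, with gaps of 227 to 368 bp (median 258 bp) between the annotated 5' ends. An optimal summit lay in 4 of the gaps, and a region of the whole pooled list had its summit in 6. All of these were among the 10 gaps that were unique at 90% or more, while 0 of the 20 gaps unique at under 50% held even a relaxed pooled summit. Among divergent pairs of other genes with gaps of the same range of lengths and at least 90% unique, 110 of 284 (38.7%) held an optimal summit, close to the 4 of 10 of the histone gaps. These gaps are not fully alike, because the annotated 5' end was the start codon in 62 of the 66 core genes (93.9%) but in 23.4% of all protein-coding genes. By type, 2 of 16 pairs of H2A with H2B, 1 of 14 pairs of H3 with H4 and the single pair of H2A with H4 held an optimal summit. The 4 optimal summits lay near the centre of the gap, at -21.5 bp for his-4 and his-3, -7.5 bp for his-60 and his-59, 6 bp for his-61 and his-62 and 51.5 bp for his-67 and his-68, counted from the left gene towards the right.

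The 6 unique gaps without an optimal summit were not alike. The gap of his-35 and his-41, an H2A and an H2B gene with introns, had a pooled summit at rank 7508 (signal 33.4), just below the last optimal peak, with ranks of 8020 in replicate 1 and 8751 in replicate 2. The gap of his-38 and his-40 had a pooled summit at rank 12974, and ranks of 15159 and 16696. The gap of his-31 and his-32 had a summit at rank 3482 (signal 30.4) in replicate 1 and none in replicate 2 or the pooled list, and that of his-2 and his-1 had one in replicate 1 alone, at rank 13360. The gaps of his-6 with his-5 and of his-63 with his-64 held no summit in any list.

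**Figure D4:**
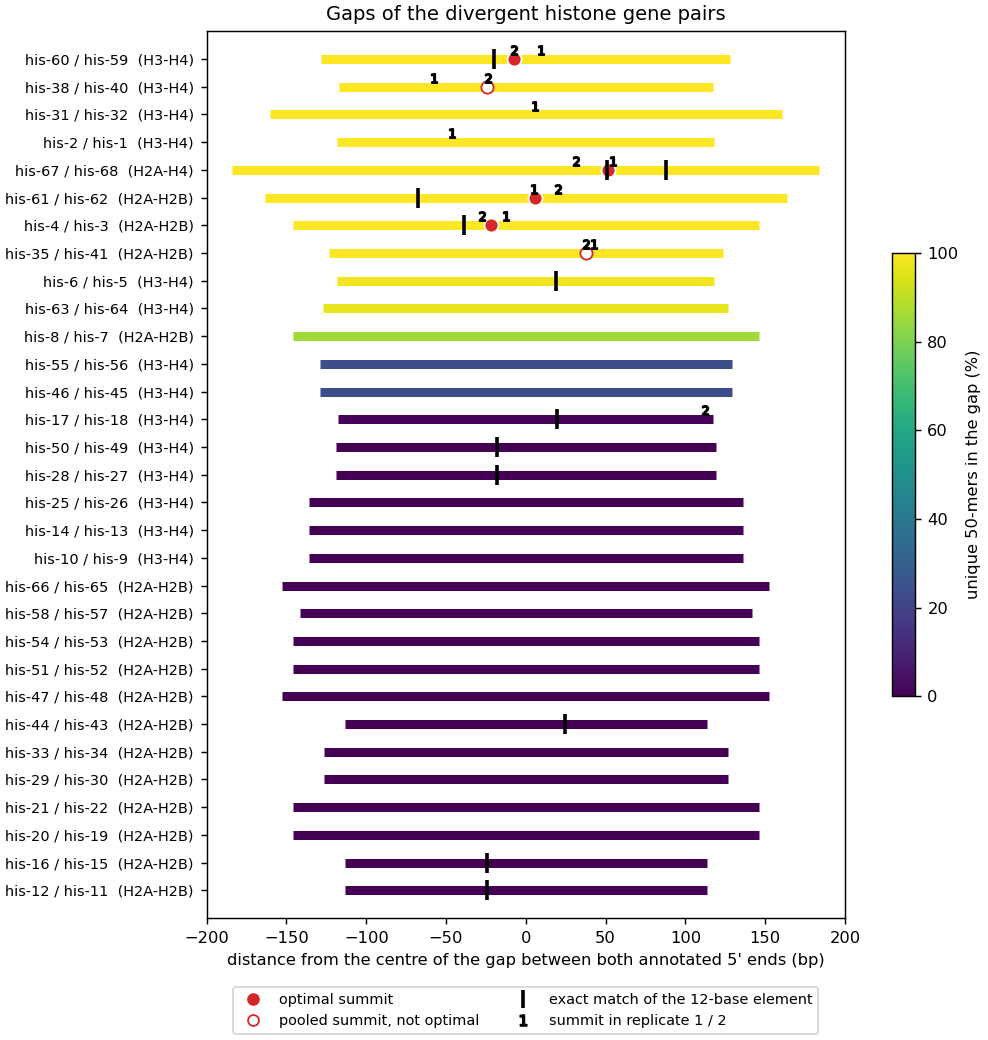
The gaps of the 31 divergent histone pairs, drawn as bars from the 5' end of one gene to that of the other, with the distance from the centre on the x axis (bp) and the colour giving the share of positions with a unique 50-mer (in %). Filled circles are optimal summits, open circles pooled summits below the optimal list, digits the summits of replicates 1 and 2, and ticks exact matches of the 12-base sequence. All 4 optimal summits lie in fully unique gaps, and the 12-base sequence is in these by its choice and in further gaps with no optimal summit.

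The 12-base sequence is the longest that the 5 core peaks of the strongest 5% share, read on either strand. It was thus chosen from these peaks, and its presence in them, in the 4 gaps with an optimal summit and at the 9 core genes they serve is fixed by that choice. Searched on both strands, it occurred 43 times in the genome. It was found between 250 bp before and 50 bp after the 5' end of 24 of the 81 histone genes (29.6%), 23 of them core genes and the other his-24, and of 2 of the 19892 other genes (0.0101%). These histone genes are not independent. Both genes of a divergent pair were counted for a match in their gap. The gaps of his-16 with his-15, his-12 with his-11 and his-44 with his-43 are 3 copies of 1 sequence. Those of his-50 with his-49 and his-28 with his-27 are 2 copies of another. Of the 18 marked histone genes 10 had it, that is his-24 besides the 9. Of the 6 unique gaps without an optimal summit 1 had it as an exact match, that of his-6 and his-5, and so had 6 of the 21 less unique gaps. Near matches were common in the rest. The unique gaps of his-31 with his-32, his-63 with his-64 and his-2 with his-1 held 11 of the 12 letters. That of his-38 with his-40 held 9 and that of his-35 with his-41 held 8. Less unique gaps without an exact match held 11 letters, or 10 at his-8 and his-7. The centre of the nearest match lay 2.5 bp from the summit at his-37, -17.5 bp at his-3 and his-4, -12.5 bp at his-59 and his-60, -73.5 bp at his-61 and his-62, -0.5 bp at his-67 and his-68, and -17.5 bp at his-24. Of all 7262 optimal regions 9 held it, 5 of them the core peaks it came from. Outside the histone gaps, 20 genomic matches lay in sequence unique at 90% or more, and 3 of these were within 100 bp of an optimal summit. They include his-37, whose match is fixed by the choice, and his-24, and of the 18 others 1 was near an optimal summit.

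The gap of his-6 and his-5 is printed as the unique gap with an exact match, in capitals, and no region in any list. That of his-2 and his-1 follows as a close relative from a cluster with a strong peak in its other gap; its best match has 11 of the 12 letters and is left in lower case.
his-6 and his-5, chrV:8534978-8535213, + strand: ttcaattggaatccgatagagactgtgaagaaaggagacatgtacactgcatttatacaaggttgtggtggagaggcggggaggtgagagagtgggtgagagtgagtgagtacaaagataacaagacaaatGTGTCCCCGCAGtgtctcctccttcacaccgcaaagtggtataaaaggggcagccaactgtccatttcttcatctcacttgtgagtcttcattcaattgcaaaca
his-2 and his-1, chrV:16042284-16042519, + strand: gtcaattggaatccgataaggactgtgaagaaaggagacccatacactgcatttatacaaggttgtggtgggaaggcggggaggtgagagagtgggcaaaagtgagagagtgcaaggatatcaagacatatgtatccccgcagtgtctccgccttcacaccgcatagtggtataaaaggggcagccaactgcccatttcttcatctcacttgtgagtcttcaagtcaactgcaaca

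Other promoter motifs were searched on both strands in the same 300 bp. TATAAA, the TATA box, was found in 51 of 81 histone promoters (63.0%) and in 37.8% of the other genes. Among marked genes it was in 8 of the 18 histone genes (44.4%) and in 35.8% of the others. CCAAT was found in 43 of 81 (53.1%) and in 45.5% of the others. ATTTGCAT, the octamer of vertebrate H2B promoters, was in 0 of 81 and in 2.87% of the others, and GAGACGCAG was in 2 of 81 (his-67 and his-68) and in 2.94% of the others. Histone promoters had a median GC content of 48% against 34.3%. No test was made of these shares. Histone promoters are not independent here either, since a match in a gap can count for both genes of a pair. In addition, 33 members have 250 bp upstream identical to those of another member.

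The 3' stem-loop of replication-dependent histone mRNA was searched as a perfect stem of 6 bp with a loop of 4 bases within 100 bp after the stop codon. It was found in 57 of the 66 core genes, in 0 of 9 linker and 0 of 6 variant genes, and in 7.23% of the other genes. Of the members with a stem-loop 10 of 57 (17.5%) were marked, against 8 of 24 (33.3%) without. Of the members without introns in the coding sequence 11 of 65 (16.9%) were marked, against 7 of 16 (43.8%) with introns. The share of all protein-coding genes was 21.7%. All stem-loop genes were core genes, whose median window was unique at 21.3% of positions. Members without a stem-loop included all linker and variant genes, with windows unique at 90.02% or more. Stem-loop, introns, class and uniqueness therefore went largely together. In windows unique at 90% or more, 7 of 13 core genes were marked, and 13 of 28 histone genes in all. The source of the lower share of stem-loop genes was not tested. The core genes his-35, his-41 and his-37 had introns and no stem-loop, and his-37 was the one of the 3 with an optimal peak. The genes his-61, with a strong peak, and his-2, without an optimal peak, had the same stem-loop, shown here in capitals.
his-61, chrIV:7485778-7485803, - strand: caacGGCCCTCTTTAGGGCCacaatt
his-2, chrV:16041794-16041819, - strand: caacGGCCCTCTTTAGGGCCacatac

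The replicates were then compared gene by gene. When as many regions as there are optimal peaks were taken from each replicate list, the strongest first, replicate 1 marked 21 histone genes, where 21% of all protein-coding genes were marked, and replicate 2 marked 14, against 21.7%. All 14 genes of replicate 2 were among those of replicate 1. The 7 genes marked in replicate 1 alone were his-15, his-26, his-31, his-32, his-35, his-46 and hil-3. The his-15 summit lay 770 bp upstream, past his-16. That of his-35 (rank 5377) lay 991 bp upstream, past his-41, in the region of the his-37 side peak. The gap of his-35 and his-41 itself ranked 8020 in replicate 1. Of the 18 genes marked in the optimal list, hil-2 was in neither set, and his-26, his-46 and hil-3 were in that of replicate 1 only. The 10 genes with a peak among the strongest 5% were marked in both. At the threshold of the optimal list, the his-37 side peak (signal 34.8) was just inside, and the his-35 and his-41 gap (33.4) just outside.

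The count of marked histone genes was also taken under other definitions. Among the strongest 3631 optimal peaks it was 13 (16.05%), where 12.4% of all protein-coding genes were marked, and with every region of the pooled list it was 29 (35.8%), where 38.7% were. A window of 500 bp upstream and 100 bp downstream gave 15 histone genes (18.5%, against 17.3% of all genes), and one of 2000 bp upstream gave 23 (28.4%, against 26.6%). Counting any overlap of a region with the window gave 19 (23.5%, against 22.9%). With peaks assigned to the nearest 5' end alone, 13 histone genes (16.05%) were marked, against 21.8% of all genes. That assignment gives a peak to 1 gene only, and it lost his-3, his-26, his-46, his-61, his-67 and htz-1 and gained his-25.

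Genes that supply and deposit histones were looked up for comparison, from a list of 19. The list also held the histone genes hcp-3, cpar-1 and htas-1. Of the 19 genes, 11 (57.9%), hcp-3 among them, were marked, against the 21.7% of all protein-coding genes. The strongest was lin-53, which encodes a histone-binding protein of the RbAp48 family found in several chromatin complexes, with a pooled signal of 263 (rank 95) and a relative signal of 3.90 ± 0.238 (SD, n = 2). That peak is shared with the neighbouring gene nra-2. The H2A-H2B chaperone gene nap-1 followed at rank 1146 (1.82 ± 0.226, SD, n = 2), in a peak shared with praf-3, then spr-2, of the same protein family, at rank 2406 (1.30 ± 0.112, SD, n = 2) and unc-85, which encodes a worm ASF1 for H3 and H4, at rank 3256 (1.06 ± 0.0863, SD, n = 2). Weaker optimal peaks, at ranks from 3574 to 6804, were at chaf-2, hcp-3, hira-1, xnp-1, chaf-1, hmg-4 and ssl-1. Of these, hcp-3, the gene for the centromeric H3, had a summit within 100 bp in replicate 1 alone. The genes cdl-1, which encodes the protein that binds the histone stem-loop, asfl-1, rba-1, hmg-3, spt-16, cpar-1, knl-2 and htas-1 were not marked.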

How the data were processed

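ChIP-seq of DVE-1-GFP was measured in 2 biological replicates of 1 group, and the replicate numbers come from the labels. The authors deposited narrowPeak lists without header. Per the text deposited beside the lists, a relaxed list of peaks and background was made for each replicate and for the pooled replicates against 1 shared control alignment, and the optimal list passed a reproducibility threshold. Of the aligner, peak caller, read length, that threshold and the handling of reads with several matches nothing is said (not given in the sources used here). The deposited signal of each region is the authors' value, on its own scale in each list. It ranked regions within a list and was divided by each replicate's median over optimal peaks for a relative signal. The deposited -log10 q value was not used for ranking. The summit is the deposited start plus the deposited offset. Lists on the ce10 assembly were not used.

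Positions were joined with the Ensembl 115 annotation of 29314 5' ends on 6 chromosomes. Gene symbols are RefSeq's, matched by WormBase gene ID for 81 of 81 members, because Ensembl gives 36 of them a name shared with another copy. Where a gene has several 5' ends, the distance of an optimal summit is to the closest. For summits of the relaxed lists it is to 1 of the ends whose window holds the summit, which need not be the closest. A replicate summit within 100 bp counted as the same peak. Unique 36-mers and 50-mers were counted on both strands of the nuclear genome. For a gene with several 5' ends, uniqueness, promoter motifs and gaps were measured from the outermost end only, while a summit counted at any end. The search of windows for summits was checked with planted summits, and the k-mer uniqueness on a simulated genome. No test between conditions was possible and none was run. Named were every member with an optimal summit, every linker and variant gene, genes that share a summit with a member and members strong in 1 replicate only. The gaps without an optimal summit, the 12-base sequence and the printed sequences were chosen after their values were seen, and the members and lists were chosen with earlier results of these data known. Python 3.11.15, numpy 2.4.6, pandas 2.3.3, Biopython 1.88 and matplotlib 3.10.9 were used.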

Additional observations from a re-analysis of the deposited data

How the results depend on the processing

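With 2 replicates and no read counts, differences near the threshold of the optimal list cannot be resolved. Using each replicate alone gave 14 to 21 marked histone genes, 10 to 16 core, 2 to 3 linker and 2 variant genes, 13 to 17 peaks, 5 to 7 clusters with a marked gene and a relative signal at his-37 of 7.912 to 8.675. Among the strongest 3631 optimal peaks, 1 linker gene and 9 distinct peaks were left, as fewer peaks were counted. With every pooled region, 29 genes (21 core) and 32 peaks were found, as more regions were counted. Assigning each peak to the nearest 5' end left 1 variant gene, because the htz-1 summit is closer to wapl-1. The other settings kept these counts within 1.5 times. Dividing by the median of all regions of each replicate list put his-37 at 32.61, because that median includes background. No paired analysis was possible because there is 1 group.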
